A study of Mus musculus with 12 samples.

Results

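Oxidative phosphorylation complexes II to V of the mouse left ventricle were described through 50 nuclear genes, out of 17471 genes in the files. They were taken by the start of their symbols (Sdha, Sdhb, Sdhc, Sdhd, Uqcr, Cyc1, Cox4, Cox5, Cox6, Cox7, Cox8 and Atp5), which gave 8 genes of complex II, 9 of complex III, 17 of complex IV and 16 of complex V. The pattern Sdha also took in 4 assembly factors (Sdhaf1 to Sdhaf4). Cox7a2l and Atp5s carry the family names but encode proteins outside the complexes proper: Cox7a2l joins complexes III and IV into supercomplexes, and Atp5s (Dmac2l) is related to coupling factor B.

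RNA of whole left ventricles of mice aged 6 to 10 weeks was sequenced on day 4 after surgery, which was either a sham procedure or a myocardial infarction (MI) made by tying off the left anterior descending coronary artery for good. All animals carried floxed Yap alleles and ate tamoxifen from the time of surgery. Cre-positive animals carried MerCreMer, a recombinase that tamoxifen activates, as 1 copy at the endogenous periostin locus (Postn), so that deletion was limited to cells that express Postn, mainly activated fibroblasts. In their Cre-negative siblings the Postn locus was wildtype. The groups were Cre-positive MI, Cre-negative MI, Cre-positive sham and Cre-negative sham, with n = 3 libraries in each. The labels number the replicates and say nothing of the animals behind them, so p-values measure only the spread between these libraries, which may be technical.

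Complex II (succinate dehydrogenase) passes electrons from succinate to coenzyme Q, complex III hands them on to cytochrome c, complex IV (cytochrome c oxidase) gives them to oxygen, and complex V makes ATP from the resulting proton gradient. The heart is among the tissues richest in these complexes, because contraction draws its ATP mostly from mitochondria. Several small subunits of complex IV exist as a heart and muscle form and a ubiquitous form made from separate genes: Cox6a2 and Cox6a1, Cox7a1 and Cox7a2, Cox8b and Cox8a. Cox4i2 is the second form of subunit 4, best known from lung and from cells at low oxygen, beside the general form Cox4i1.

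The start regions of 5 of these isoform genes are shown because the members of these pairs moved unequally after infarction. Those of Cox6a2, Cox4i1 and Cox4i2 were not available in the RefSeq source used, so Cox6a1 is shown without its partner. Each is 300 bases, from 250 before to 50 after the RefSeq start, read 5′ to 3′ on the gene's strand in GRCm38.p6 (mm10). Cox8b lies at chr7:140900397-140900696 (minus strand), Cox8a at chr19:7217567-7217866 (minus), Cox7a1 at chr7:30183921-30184220 (plus), Cox7a2 at chr9:79759804-79760103 (minus) and Cox6a1 at chr5:115348909-115349208 (minus). Capitals mark matches, on either strand, to motifs linked with respiratory genes or with core promoters. The motif CCGGAAG is that of ETS factors such as GABPA. The motif GCGCANGC is that of nuclear respiratory factor NRF1, in which N stands for any base. The motif AAGGTCA is the half-site bound by estrogen-related receptors, which govern energy metabolism in muscle. The motif AAGATGG is that of the zinc finger factor YY1, and the last, TATAAA, is the TATA box that places the start of transcription.
Cox8b: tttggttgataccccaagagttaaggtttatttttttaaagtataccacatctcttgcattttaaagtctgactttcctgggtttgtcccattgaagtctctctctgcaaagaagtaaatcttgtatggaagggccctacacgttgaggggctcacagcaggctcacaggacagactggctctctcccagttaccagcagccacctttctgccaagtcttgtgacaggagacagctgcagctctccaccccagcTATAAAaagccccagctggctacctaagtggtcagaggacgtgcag
Cox8a: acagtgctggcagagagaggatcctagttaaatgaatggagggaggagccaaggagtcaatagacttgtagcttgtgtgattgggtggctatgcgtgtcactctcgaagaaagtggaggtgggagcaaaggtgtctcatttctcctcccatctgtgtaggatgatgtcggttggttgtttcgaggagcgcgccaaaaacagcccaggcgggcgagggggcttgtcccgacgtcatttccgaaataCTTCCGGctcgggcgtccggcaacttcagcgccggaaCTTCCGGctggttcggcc
Cox7a1: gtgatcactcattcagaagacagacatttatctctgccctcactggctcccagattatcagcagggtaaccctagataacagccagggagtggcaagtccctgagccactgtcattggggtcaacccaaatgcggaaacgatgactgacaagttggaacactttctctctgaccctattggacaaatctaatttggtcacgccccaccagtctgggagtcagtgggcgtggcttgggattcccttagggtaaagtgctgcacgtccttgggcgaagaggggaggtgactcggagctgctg
Cox7a2: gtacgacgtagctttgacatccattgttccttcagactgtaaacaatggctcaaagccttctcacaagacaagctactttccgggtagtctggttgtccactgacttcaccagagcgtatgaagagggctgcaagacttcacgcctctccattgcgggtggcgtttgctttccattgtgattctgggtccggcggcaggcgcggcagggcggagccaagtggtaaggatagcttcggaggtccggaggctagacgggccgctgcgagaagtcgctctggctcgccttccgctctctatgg
Cox6a1: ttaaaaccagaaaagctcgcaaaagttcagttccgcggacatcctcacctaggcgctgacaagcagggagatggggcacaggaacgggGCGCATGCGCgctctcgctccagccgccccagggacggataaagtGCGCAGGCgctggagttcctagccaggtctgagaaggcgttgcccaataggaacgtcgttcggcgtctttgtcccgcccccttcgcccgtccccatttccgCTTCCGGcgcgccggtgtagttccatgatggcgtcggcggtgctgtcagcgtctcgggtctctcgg
Cox8a held 2 ETS matches and Cox6a1 held 1, and Cox6a1 also held 3 NRF1 matches, of which 2 overlap on opposite strands. The single match in Cox8b was a TATA box, and Cox7a1 and Cox7a2 held none of these 5 motifs. CG dinucleotides numbered 2 in the window of Cox8b and 7 in that of Cox7a1, against 19 in Cox8a, 20 in Cox7a2 and 32 in Cox6a1. Of the 50 genes 40 had a start region in the RefSeq table, with a median of 19 CG dinucleotides, against 20 over 10900 genes tested here. The ETS motif was in 37.5% of the 40 (9.93% of all 27025 genes in the table, 18.8% of the genes tested) and the NRF1 motif in 42.5% (11.2% and 21.3%). The receptor half-site was in 12.5% (5.38% and 3.89%), YY1 in 10.0% (7.28% and 7.99%), TATAAA in 10.0% (15.7% and 9.22%) and CCAAT, not capitalised here, in 52.5% (41.1% and 42.7%). These letter matches are a description of the windows and show no binding.

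Libraries held 10257675 to 15176286 expected counts, the read estimates per gene, and levels below are CPM, counts scaled to a common library size with TMM factors. Of the 50 genes 49 passed the filter on low counts, and 13678 genes were tested in all. Cox7b2, a testis isoform, did not pass, with 7 reads over the 12 libraries. Yap1 was read at 91.1 to 93.9 CPM after Cre-positive MI, 84.6 to 96.4 after Cre-negative MI, 102 to 121 after Cre-positive sham and 114 to 116 after Cre-negative sham surgery, and counts of a whole gene do not resolve the floxed exon. Postn, from the locus that carries the recombinase, had 603 to 674, 1528 to 1729, 3.76 to 11.4 and 62.7 to 111 CPM in the same order of groups. Cre-positive sham 2 stood apart, with 34063 CPM of the slow myosin gene Myh7 against 377 to 2938 in the other 5 sham libraries, and it had the lowest value of the 6 sham libraries in 32 of the 49 genes. Y-linked genes summed to more than 10 CPM in 1 of 3 Cre-positive MI and 3 of 3 Cre-negative MI libraries. They did so in 0 of 3 Cre-positive sham and 2 of 3 Cre-negative sham libraries. The labels name no batch.

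After infarction nearly the whole set was lower in both genotypes. In Cre-positive hearts 43 of the 49 genes fell and 0 rose (edgeR's quasi-likelihood test, adjusted p under 0.05, adjusted over all genes by Benjamini and Hochberg's method). Over all 13678 genes 19.5% fell and 25.7% rose in that comparison. The median log2 fold change, MI minus sham, was -0.56 over the 49 genes and 0.02 over all genes. In Cre-negative hearts 45 fell and 1 rose, against 24.4% of all genes that fell and 29.9% that rose, with medians of -0.86 and 0.02. Of the genes at an unadjusted p under 0.05, the set held 44 in Cre-positive hearts (52.6% of all genes) and 47 in Cre-negative hearts (59.6% of all genes). Without Cre-positive sham 2 the Cre-positive median was -0.69 and 44 genes fell, with 6585 of all 13678 genes called in either direction. Scaling by total counts alone put the median of all genes at 0.24 in Cre-positive and 0.27 in Cre-negative hearts. That of the set was then at -0.33 and -0.61. With it 34 genes of the set fell and 1 rose in Cre-positive hearts, and 44 fell and 1 rose in Cre-negative hearts. Of all 13678 genes, 6125 and 7471 were called in either direction. The Cre-positive genes that lost their call with that scaling were Sdhaf2, Sdhaf3, Cyc1, Uqcr10, Uqcrq, Cox5a, Cox6b1, Atp5g1 and Atp5l.

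**Figure D1:**
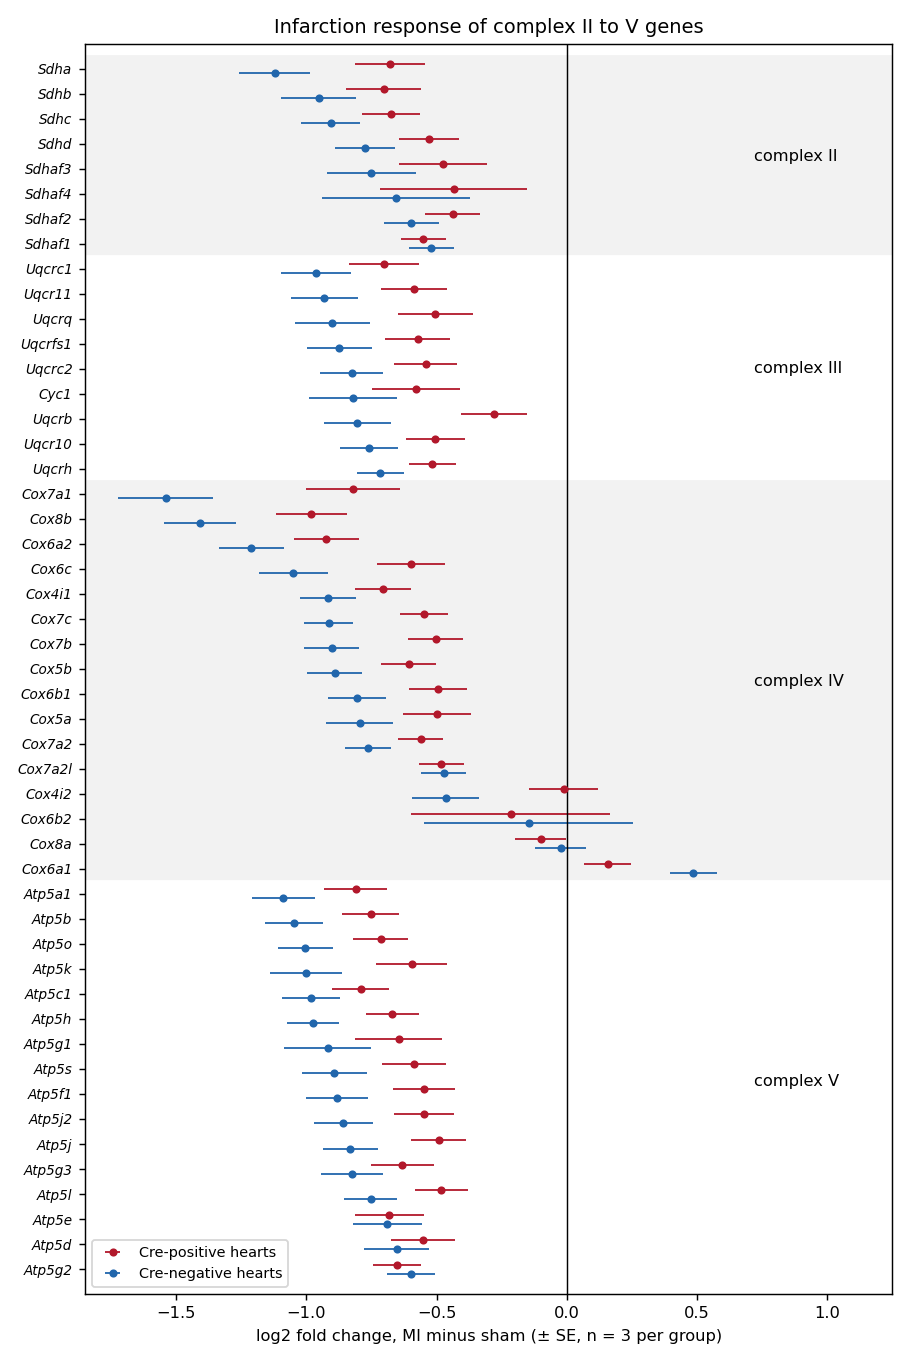
Log2 fold change, MI minus sham, of each of the 49 genes tested, in Cre-positive (red) and Cre-negative hearts (blue), grouped by complex. Bars are standard errors worked back from the edgeR test (n = 3 libraries per group). Nearly all points lie left of 0, most between -1.2 and -0.4, with Cox7a1 and Cox8b farthest left in Cre-negative hearts and Cox6a1 to the right of 0 in both.

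The median changes of the 4 complexes lay close together. In Cre-positive hearts their median log2 fold changes were -0.54 (complex II), -0.54 (III), -0.53 (IV) and -0.64 (V). In Cre-negative hearts they were -0.76, -0.83, -0.85 and -0.89. Both comparisons use separate libraries, and the difference between them is tested further on. The complex II medians include its 4 assembly factors. Over its 4 subunit genes alone the medians were -0.68 in Cre-positive and -0.93 in Cre-negative hearts.

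All 4 subunit genes of succinate dehydrogenase fell in both genotypes. Sdha, which encodes the flavoprotein that oxidises succinate, had 991, 893 and 1020 CPM in the Cre-positive MI libraries and 686, 746 and 869 in Cre-negative MI libraries, against 1498, 1389 and 1760 in the Cre-positive sham libraries and 1753, 1443 and 1812 in Cre-negative sham libraries. Every MI library lay below every sham library, and the 3 Cre-negative MI libraries were the lowest of the 12. Sdha fell by 0.68 ± 0.14 on the log2 scale in Cre-positive hearts (SE worked back from the test, n = 3 per group, adjusted p = 0.00148, edgeR). In Cre-negative hearts Sdha fell by 1.12 ± 0.14 (adjusted p = 2.54e-05, edgeR). The iron-sulfur subunit gene Sdhb fell by 0.70 and 0.95, and the membrane anchor genes Sdhc and Sdhd fell by 0.68 and 0.91 and by 0.53 and 0.78, with the Cre-positive value first in each pair.

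The assembly factors of complex II, at lower FPKM than its subunits in the sham ventricles, were called in 3 of 4 cases in each genotype. Sdhaf1, needed to place the iron-sulfur clusters in Sdhb, had 25.9, 25.6 and 25.1 CPM in the Cre-positive MI libraries and 22.7, 24.0 and 22.3 in Cre-negative MI libraries, against 38.8, 37.0 and 36.4 in the Cre-positive sham libraries and 32.8, 31.1 and 35.1 in Cre-negative sham libraries. Its MI and sham libraries did not overlap in either genotype. Sdhaf1 fell by 0.55 ± 0.09 in Cre-positive (adjusted p = 0.00026, edgeR) and 0.52 ± 0.09 in Cre-negative hearts (adjusted p = 0.000281). Sdhaf2, which helps attach the flavin to Sdha, fell by 0.44 and 0.60. Sdhaf3 fell by 0.48 in Cre-positive hearts, a call lost without any 1 of 6 libraries (adjusted p between 0.0531 and 0.13), and by 0.75 in Cre-negative hearts. Those 6 are the 3 Cre-positive MI libraries, Cre-positive sham 2 and 3 and Cre-negative MI 2. The call was also lost with no filter (adjusted p = 0.0568) and with only the groups compared (adjusted p = 0.0931). Sdhaf4 was not called, at -0.44 ± 0.28 (adjusted p = 0.23) and -0.66 ± 0.28 (adjusted p = 0.0676). It had 21.3, 8.15 and 20.1 CPM in the Cre-positive sham libraries, and without Cre-positive sham 2 it fell by 0.80 in Cre-positive (adjusted p = 0.00177) and 0.68 in Cre-negative hearts (adjusted p = 0.00198). In Cre-negative hearts it was also called without Cre-positive sham 1 (adjusted p = 0.0479), by edgeR on only the groups compared (adjusted p = 0.00751) and by DESeq2 (adjusted p = 0.0441). The authors' deposited table has it at -0.68 there (adjusted p = 0.00205).

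All 9 complex III genes fell in Cre-negative hearts, between -0.96 (Uqcrc1) and -0.72 (Uqcrh), the narrowest range of the 4 complexes there, and 8 of 9 fell in Cre-positive hearts. Uqcrc1, which encodes the first core protein of the matrix side, had 1061, 1005 and 940 CPM in the Cre-positive MI libraries and 746, 855 and 882 in Cre-negative MI libraries, against 1895, 1332 and 1660 in the Cre-positive sham libraries and 1732, 1500 and 1608 in Cre-negative sham libraries. All 6 MI libraries were below all 6 sham libraries. The hinge protein gene Uqcrh, whose product contacts cytochrome c1, had 358, 356 and 332 CPM in the Cre-positive MI libraries and 266, 298 and 311 in Cre-negative MI libraries, against 495, 476 and 527 in the Cre-positive sham libraries and 476, 481 and 479 in Cre-negative sham libraries. Its MI and sham groups were also apart, and its Cre-negative sham libraries were nearly equal. Uqcrc1 fell by 0.70 ± 0.13 and 0.96 ± 0.14 (adjusted p = 0.00114 and 7.81e-05, edgeR) and Uqcrh by 0.52 ± 0.09 and 0.72 ± 0.09 (adjusted p = 0.000588 and 3.45e-05, edgeR), in Cre-positive and Cre-negative hearts.

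Of the catalytic subunits, the cytochrome c1 gene Cyc1 fell by 0.58 and 0.82 and the Rieske iron-sulfur protein gene Uqcrfs1 by 0.57 and 0.87 on the log2 scale in Cre-positive and Cre-negative hearts. The Cre-positive call of Cyc1 was lost without Cre-positive MI 2 (adjusted p = 0.0517) or Cre-positive sham 1 (adjusted p = 0.0619). It was also lost when the fit held only the groups compared (adjusted p = 0.0536). The call of the small subunit gene Uqcrq was lost without Cre-positive MI 3 (adjusted p = 0.051) or Cre-positive sham 1 (adjusted p = 0.0521), and with only the groups compared (adjusted p = 0.0637). The second core protein gene Uqcrc2 fell by 0.54 and 0.83, and the small subunit genes Uqcr10 and Uqcr11 by 0.51 and 0.76 and by 0.59 and 0.93. Uqcrb, a small subunit near the coenzyme Q site, fell by 0.81 in Cre-negative hearts but was at -0.28 ± 0.13 in Cre-positive hearts (adjusted p = 0.0907, edgeR). Without Cre-positive sham 1 or 2 it was called there too (adjusted p = 0.0303 and 0.0494).

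Complex IV held both the largest falls and most of the exceptions. Of 16 genes tested, 12 fell in Cre-positive hearts, and 13 fell and 1 rose in Cre-negative hearts. The general subunit genes moved like the other complexes: Cox4i1, Cox5a, Cox5b, Cox6b1, Cox6c, Cox7b and Cox7c fell between -0.71 and -0.49 in Cre-positive and between -1.05 and -0.79 in Cre-negative hearts. Cox7a2l fell by 0.48 and 0.47. The testis isoform gene Cox6b2 was read at low level, at 0.97 to 2.84 CPM over all 12 libraries, and was not called.

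**Figure D2:**
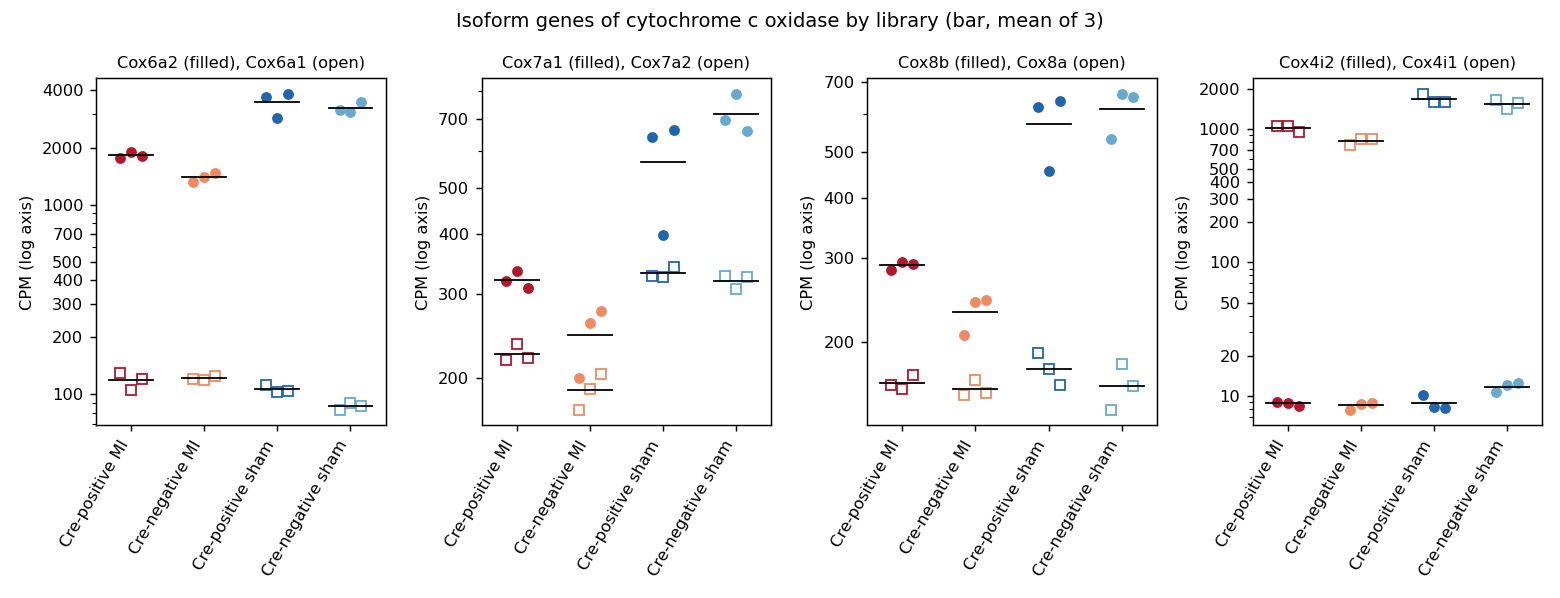
CPM, on a log axis, of the 4 isoform pairs of cytochrome c oxidase in each library, with the heart, muscle or second form filled, the ubiquitous or general form open and a bar at the mean of 3 libraries. After MI the filled points of Cox6a2, Cox7a1 and Cox8b lie below their sham values, while the open points of Cox6a1 and Cox8a do not.

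The heart and muscle forms had the largest falls of the set. Cox7a1 had 319, 336 and 309 CPM in the Cre-positive MI libraries and 200, 261 and 277 in Cre-negative MI libraries, against 640, 398 and 663 in the Cre-positive sham libraries and 697, 788 and 660 in Cre-negative sham libraries. All 6 MI libraries were below all 6 sham libraries, with Cre-positive sham 2 the nearest to them. Cox7a1 fell by 0.82 ± 0.18 in Cre-positive (adjusted p = 0.00284, edgeR) and 1.54 ± 0.18 in Cre-negative hearts (adjusted p = 2.2e-05, edgeR), or 1.77-fold and 2.91-fold lower.

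Cox8b had 283, 294 and 292 CPM in the Cre-positive MI libraries and 207, 242 and 245 in Cre-negative MI libraries, against 619, 456 and 639 in the Cre-positive sham libraries and 532, 660 and 651 in Cre-negative sham libraries. Cox6a2, the member of complex IV with the highest level per transcript length in the sham ventricles, had 1752, 1903 and 1816 CPM in the Cre-positive MI libraries and 1320, 1401 and 1469 in Cre-negative MI libraries, against 3697, 2866 and 3821 in the Cre-positive sham libraries and 3162, 3087 and 3457 in Cre-negative sham libraries. Neither gene's MI libraries reached the sham range, and for both genes the Cre-negative MI libraries were the lowest of the 12. Cox8b fell by 0.98 ± 0.14 and 1.41 ± 0.14 on the log2 scale (adjusted p = 0.000122 and 5.18e-06, edgeR) and Cox6a2 by 0.92 ± 0.13 and 1.21 ± 0.13 (adjusted p = 9.18e-05 and 7.41e-06, edgeR), in Cre-positive and Cre-negative hearts.

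Of the ubiquitous forms, Cox6a1 was the only gene of the set that rose. It had 130, 106 and 120 CPM in the Cre-positive MI libraries and 120, 120 and 124 in Cre-negative MI libraries, against 112, 103 and 105 in the Cre-positive sham libraries and 83.2, 90.3 and 86.6 in Cre-negative sham libraries. The Cre-negative groups did not overlap, while the Cre-positive groups did. Cox6a1 rose by 0.49 ± 0.09 in Cre-negative hearts (adjusted p = 0.000682, edgeR), or 1.40-fold, and was at 0.16 ± 0.09 in Cre-positive hearts (adjusted p = 0.177). Scaled by total counts alone it also rose in Cre-positive hearts (0.39, adjusted p = 0.00788).

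Cox8a had 163, 159 and 171 CPM in the Cre-positive MI libraries and 155, 166 and 157 in Cre-negative MI libraries, against 190, 176 and 162 in the Cre-positive sham libraries and 145, 180 and 162 in Cre-negative sham libraries. The ranges overlapped in both genotypes, and the gene was not called, at -0.10 ± 0.10 (adjusted p = 0.428) and -0.02 ± 0.10 (adjusted p = 0.855), values that turn positive with scaling by total counts. Cox7a2 did fall: it had 218, 236 and 220 CPM in the Cre-positive MI libraries and 172, 190 and 204 in Cre-negative MI libraries, against 327, 326 and 342 in the Cre-positive sham libraries and 327, 308 and 326 in Cre-negative sham libraries. Those groups did not overlap, and Cox7a2 fell by 0.56 ± 0.09 and 0.76 ± 0.09 (adjusted p = 0.000287 and 1.83e-05, edgeR).

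For subunit 4 the general form fell more than the second form. Cox4i1 had 1056, 1057 and 957 CPM in the Cre-positive MI libraries and 761, 847 and 845 in Cre-negative MI libraries, against 1825, 1601 and 1583 in the Cre-positive sham libraries and 1648, 1422 and 1560 in Cre-negative sham libraries. Cox4i2, a gene of much lower level, had 9.01, 8.90 and 8.43 CPM in the Cre-positive MI libraries and 7.88, 8.68 and 8.87 in Cre-negative MI libraries, against 10.2, 8.25 and 8.05 in the Cre-positive sham libraries and 10.7, 11.98 and 12.4 in Cre-negative sham libraries. The groups of Cox4i1 were apart in both genotypes, and those of Cox4i2 were apart in Cre-negative and overlapped in Cre-positive hearts. Cox4i1 fell by 0.71 ± 0.11 and 0.92 ± 0.11 (adjusted p = 0.000205 and 1.83e-05, edgeR), while Cox4i2 was at -0.01 ± 0.13 in Cre-positive hearts (adjusted p = 0.947) and fell by 0.47 ± 0.13 in Cre-negative hearts (adjusted p = 0.00941), a call lost with scaling by total counts (-0.22, adjusted p = 0.191).

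The balance within a pair was also compared as the log2 ratio of its counts in each library, which does not depend on scaling between libraries. The Cox6a2 to Cox6a1 ratio was 3.75, 4.17 and 3.91 in the Cre-positive MI libraries and 3.46, 3.55 and 3.56 in Cre-negative MI libraries, against 5.04, 4.80 and 5.19 in the Cre-positive sham libraries and 5.25, 5.10 and 5.32 in Cre-negative sham libraries. Turned back from the log2 scale, the group means (geometric means of the ratios) were 15.4, 11.5, 32.2 and 37.3 to 1 in the same order. The Cox8b to Cox8a log2 ratio was 0.80, 0.88 and 0.77 in the Cre-positive MI libraries and 0.41, 0.54 and 0.64 in Cre-negative MI libraries, against 1.70, 1.38 and 1.98 in the Cre-positive sham libraries and 1.88, 1.87 and 2.01 in Cre-negative sham libraries. Both ratios were lower in every MI library than in any sham library. MI minus sham, averaged over the genotypes, was -1.38 for Cox6a2 to Cox6a1 (-1.07 in Cre-positive, -1.70 in Cre-negative) and -1.13 for Cox8b to Cox8a (-0.87 and -1.39), each with p = 0.005, the smallest the exact two-sided permutation of surgery labels within genotype can give (400 arrangements), and 0.00667 adjusted over the 4 pairs.

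The Cox7a1 to Cox7a2 log2 ratio differed less, by -0.50 (-0.22 in Cre-positive, -0.79 in Cre-negative; exact permutation p = 0.02, adjusted p = 0.02). It was 0.55, 0.51 and 0.49 in the Cre-positive MI libraries and 0.22, 0.46 and 0.44 in Cre-negative MI libraries, against 0.97, 0.29 and 0.96 in the Cre-positive sham libraries and 1.09, 1.36 and 1.02 in Cre-negative sham libraries. Cre-positive sham 2, at 0.29, lay among the MI libraries, and without it the difference was -0.62 (exact permutation, adjusted p = 0.005). All 4 pairs had that adjusted p in this setting. Leaving out a library changes the number of arrangements, so this p cannot be set against the 0.02 above. The Cox4i2 to Cox4i1 log2 ratio went the other way, 0.58 higher after MI (0.70 in Cre-positive, 0.45 in Cre-negative; exact permutation p = 0.005, adjusted p = 0.00667). It was -6.87, -6.89 and -6.82 in Cre-positive MI and -6.59, -6.60 and -6.57 in Cre-negative MI libraries, against -7.48, -7.59 and -7.61 in the Cre-positive sham libraries and -7.26, -6.89 and -6.97 in Cre-negative sham libraries. Within each genotype every MI library lay above every sham library, while the Cre-positive MI and Cre-negative sham libraries met at -6.89.

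All 16 complex V genes fell in both genotypes, except that with total counts Atp5g1 (adjusted p = 0.0571) and Atp5l (adjusted p = 0.0501) were not called in Cre-positive hearts. In Cre-negative hearts the values ran from -1.09 (Atp5a1) to -0.60 (Atp5g2), and in Cre-positive hearts from -0.81 (Atp5a1) to -0.48 (Atp5l). Atp5a1, the alpha subunit of the catalytic head, had 3619, 3674 and 3361 CPM in the Cre-positive MI libraries and 2608, 2782 and 2826 in Cre-negative MI libraries, against 6742, 5623 and 6324 in the Cre-positive sham libraries and 6389, 5167 and 5926 in Cre-negative sham libraries. All MI libraries were below all sham libraries, with Cre-positive MI libraries above Cre-negative ones. It fell by 0.81 ± 0.12 and 1.09 ± 0.12 (adjusted p = 0.000197 and 1.35e-05, edgeR).

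The beta subunit gene Atp5b, whose product holds the catalytic sites, fell by 0.75 and 1.05 on the log2 scale, the gamma (rotor shaft) gene Atp5c1 by 0.79 and 0.98, and the OSCP gene Atp5o, a link of head and stalk, by 0.72 and 1.01, in Cre-positive and Cre-negative hearts. The epsilon gene Atp5e fell by 0.68 and 0.69 and the delta gene Atp5d by 0.55 and 0.65. The peripheral stalk genes Atp5f1, Atp5h and Atp5j fell by 0.55, 0.67 and 0.49 in Cre-positive and by 0.88, 0.97 and 0.83 in Cre-negative hearts. The small membrane subunit genes Atp5j2 and Atp5l fell by 0.55 and 0.48 in Cre-positive and by 0.86 and 0.75 in Cre-negative hearts. Atp5k, another of them, fell by 0.60 in Cre-positive hearts and was 2.0-fold lower in Cre-negative hearts, and Atp5s fell by 0.59 and 0.89.

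Subunit c, which forms the rotating ring, is made as the same mature protein from Atp5g1, Atp5g2 and Atp5g3. Atp5g2 had 256, 270 and 249 CPM in the Cre-positive MI libraries and 219, 228 and 241 in Cre-negative MI libraries, against 415, 428 and 375 in the Cre-positive sham libraries and 370, 323 and 347 in Cre-negative sham libraries. Its MI and sham libraries did not overlap. It fell by 0.65 ± 0.09 and 0.60 ± 0.09 (adjusted p = 0.000124 and 0.000162, edgeR), Atp5g1 fell by 0.65 and 0.92, and Atp5g3 fell by 0.63 and 0.83.

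Per transcript length the members spanned a wide range in the Cre-negative sham ventricles. In FPKM, the authors' unit per length and depth, Cox6a2 averaged 4630 ± 262 and Atp5b 3470 (SD of Cox6a2 over n = 3), followed by Atp5a1 at 2220 and Cox4i1 at 1960. Complex II was lower, with Sdhb at 772 and Sdhd at 321 FPKM, and its assembly factors were at 10.2 to 31.9. Cox6a1 averaged 249 ± 29.9 FPKM in the Cre-positive MI libraries and 267 ± 3.07 in Cre-negative MI, against 191 ± 10.9 in the Cre-positive sham libraries and 161 ± 12.7 in Cre-negative sham libraries (SD, n = 3 each), and its partner Cox6a2 averaged 2960, 2370, 4800 and 4630 FPKM in the same order. The muscle form stayed above the ubiquitous form in all 4 groups.

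**Figure D3:**
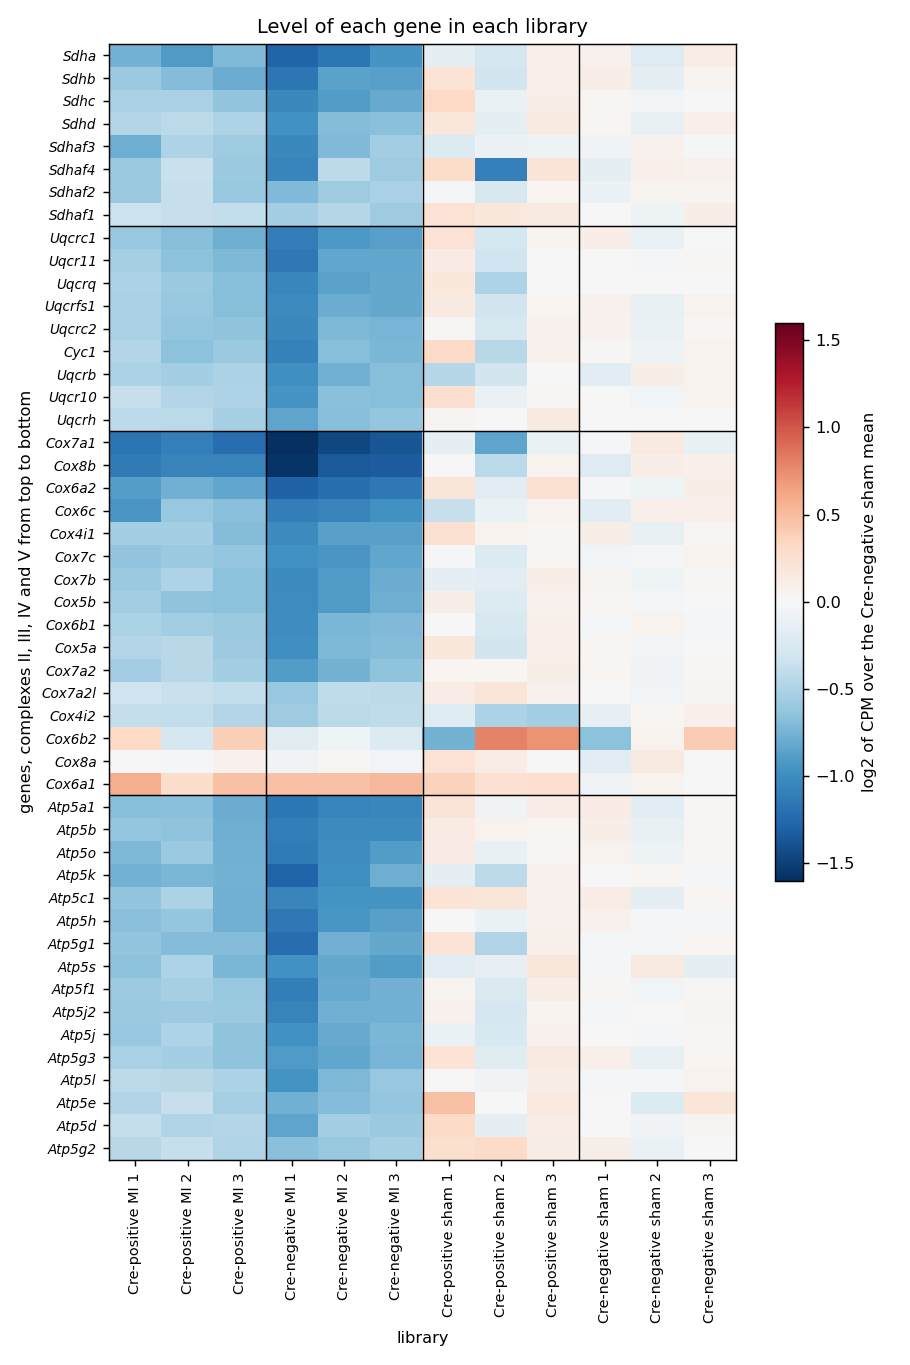
Log2 of each gene's CPM in each of the 12 libraries over its mean in the Cre-negative sham libraries, with blue lower and red higher, and the complexes from II at the top to V at the bottom. The 6 MI libraries are blue in nearly every row, Cre-negative MI 1 is the darkest of them, and Cre-positive sham 2 is paler blue in many rows while the other sham libraries are near white.

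Summed over the 50 genes, the share of all expected counts was 3.25, 3.14 and 3.04% in the Cre-positive MI libraries and 2.48, 2.74 and 2.74% in Cre-negative MI libraries, against 4.63, 3.78 and 4.46% in the Cre-positive sham libraries and 4.34, 4.28 and 4.41% in Cre-negative sham libraries. All 6 MI libraries were below all 6 sham libraries. Markers of the muscle cells fell as well. Of 10 cardiomyocyte markers (Myh6, Tnnt2, Tnni3, Actc1, Myl2, Mb, Ryr2, Pln, Ttn and Myl3) 7 fell in Cre-positive and 9 in Cre-negative hearts, with medians of -0.71 and -1.17, and 0 rose. Their summed share was 7.42 to 8.46% in the Cre-positive MI libraries and 5.48 to 7.19% in Cre-negative MI libraries, against 6.85 to 12.8% in the Cre-positive sham libraries and 11.3 to 12.1% in Cre-negative sham libraries, and none was at 0. In bulk ventricle, fewer cardiomyocytes and less RNA per cardiomyocyte cannot be told apart.

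Set against the cardiomyocyte markers, the respiratory genes were not lower after MI in Cre-negative hearts, and the Cre-positive groups overlapped. Reads of the 50 genes per read of the 10 markers were 0.438, 0.372 and 0.359 in the Cre-positive MI libraries and 0.454, 0.417 and 0.381 in Cre-negative MI libraries, against 0.380, 0.552 and 0.347 in the Cre-positive sham libraries and 0.372, 0.380 and 0.363 in Cre-negative sham libraries. The value of 0.552 is that of Cre-positive sham 2, where Myh6, the most abundant marker, had 14335 CPM against 39836 to 53143 in the other sham libraries. Myh7, which was high in that library, is not among the 10 markers. The 3 Cre-negative MI libraries lay above the 3 Cre-negative sham libraries, the closest values being 0.381 and 0.380.

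**Figure D4:**
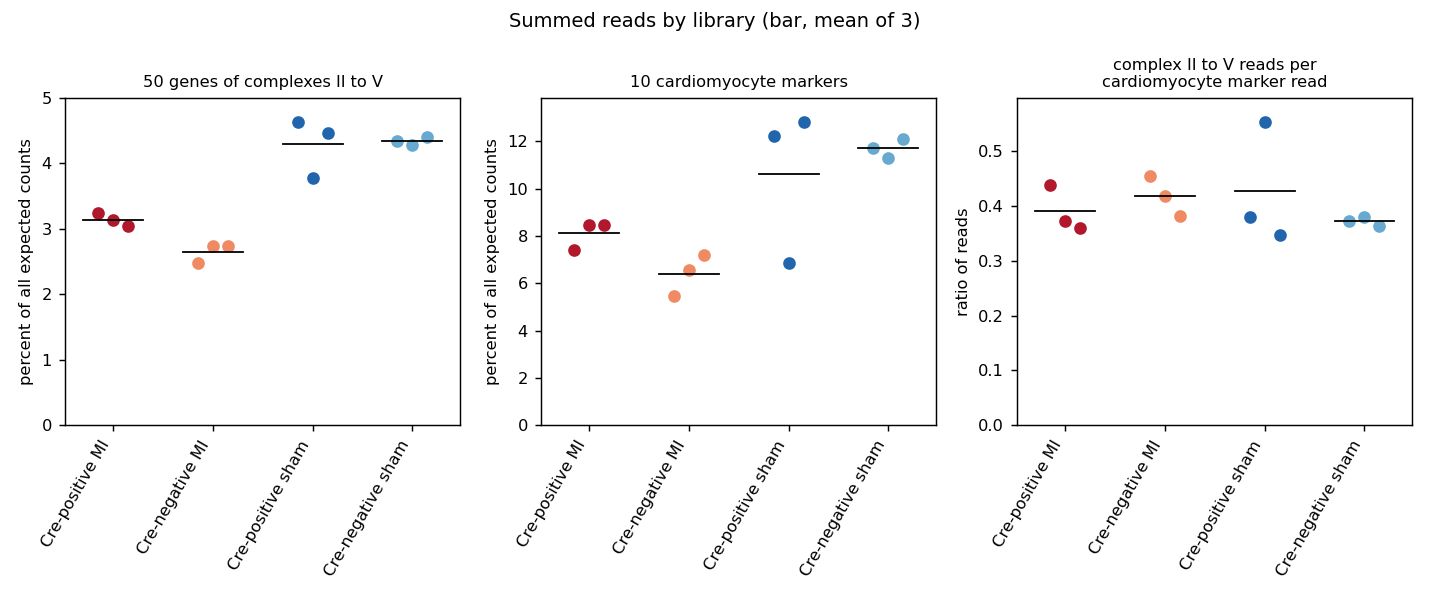
Summed expected counts per library as percent of the library for the 50 respiratory genes (left) and the 10 cardiomyocyte markers (middle), and the ratio of these sums (right), with a bar at the mean of 3 libraries. The first 2 panels are lower after MI apart from Cre-positive sham 2 in the middle panel, and the ratio lies between 0.347 and 0.552, its highest value being Cre-positive sham 2.

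Markers of some other cells rose while the respiratory genes fell. Of 6 fibroblast markers 5 rose in each genotype, with medians of 1.17 in Cre-positive and 0.74 in Cre-negative hearts on the log2 scale. Their summed share was 0.791 to 0.897% in the Cre-positive MI libraries and 1.06 to 1.2% in Cre-negative MI libraries, against 0.0785 to 0.0921% in the Cre-positive sham libraries and 0.123 to 0.149% in Cre-negative sham libraries. Most of that sum after MI was collagen: in Cre-negative MI Col1a1 averaged 5705 and Col1a2 3621 of 10299 CPM. All 6 macrophage and monocyte markers rose in each genotype, with medians of 3.03 and 3.01 on the log2 scale. Of 4 neutrophil markers 1 rose in Cre-positive and 4 in Cre-negative hearts, and all 3 adipocyte markers rose in both. Of 5 endothelial markers 1 fell in Cre-positive and 1 rose in Cre-negative hearts. Of 4 smooth muscle and pericyte markers 1 rose and 1 fell in Cre-positive and 1 rose and 2 fell in Cre-negative hearts. Of 5 skeletal muscle markers 1 was tested, Ckm, which the heart also expresses, and it fell in both. The part of these cell types in the falls of the respiratory genes was not tested.

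Genes that work with these complexes mostly fell too. Of 36 complex I subunit genes 35 fell in Cre-positive hearts (median -0.63) and 36 in Cre-negative hearts (-0.90). Of 14 genes of electron carriers and coenzyme Q synthesis, 12 fell in Cre-positive and 14 in Cre-negative hearts, among them Etfb, a carrier from fatty acid oxidation, by 0.93 and 1.22. Assembly factors were less uniform. In Cre-positive hearts 3 of 6 complex III factors, 9 of 20 complex IV factors and 4 of 6 complex V factors and regulators fell, and in Cre-negative hearts 4, 12 and 6 did. Lrpprc, which stabilises mitochondrial messengers, fell by 0.77 and 1.22 in Cre-positive and Cre-negative hearts, and Cox10, a heme A synthesis enzyme, fell by 0.88 and 0.90. The copper-related factor Cox19 rose in Cre-negative hearts (0.36 ± 0.11, adjusted p = 0.0153, edgeR) and was at 0.12 ± 0.11 in Cre-positive hearts.

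Of 16 transcriptional regulators of respiratory genes, 10 fell and 1 rose in Cre-positive hearts and 12 fell and 2 rose in Cre-negative hearts. Perm1, a muscle regulator induced by PGC-1 and estrogen-related receptors, fell by 1.01 and 1.18 and the estrogen-related receptor gene Esrrg by 0.68 and 1.06. Gabpb1, the partner subunit of the ETS factor GABPA, rose by 0.31 ± 0.09 in Cre-positive hearts (adjusted p = 0.0178) and by 0.46 ± 0.09 in Cre-negative hearts (adjusted p = 0.00125). The coactivator gene Pprc1 rose by 0.84 ± 0.15 in Cre-negative hearts (adjusted p = 0.00046) and was at 0.01 ± 0.15 in Cre-positive hearts. Of 17 general mitochondrial genes (import, chaperone, pore, carrier and other proteins) 15 fell in Cre-positive and 16 in Cre-negative hearts, with medians of -0.55 and -0.74. Among them Slc25a4, the heart's ADP/ATP exchanger, fell by 0.98 and 1.17. The respiratory subunits encoded in mitochondrial DNA were not analysed here.

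Hearts of Cre-positive and Cre-negative mice after MI were compared to ask about myofibroblast Yap depletion in the injured ventricle. The groups differ by Cre genotype, which also alters the Postn locus, and depletion of Yap1 is not shown by these whole-gene counts, whose ranges overlap after MI. Yap loss and the altered Postn locus cannot be told apart here. By edgeR, 0 of the 49 genes were called, as were 0.0% of all 13678 genes, and the smallest adjusted p of a member was 0.264. Of the 49 genes 48 had a positive log2 difference, Cre positive minus Cre negative, with a median of 0.28 (1.21-fold) against -0.01 over all genes, of which 48.7% were positive. At an unadjusted p under 0.05 there were 28 of the 49 genes, against 12.6% of all genes. In 42 of the 49 genes every Cre-positive MI library was above every Cre-negative MI library, which held for 12% of all genes.

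The 6 largest differences were Cox7a1 at 0.39 ± 0.18, Cox6a2 at 0.39 ± 0.12, Atp5a1 at 0.38 ± 0.12, Atp5b at 0.37 ± 0.11, Atp5c1 at 0.35 ± 0.11 and Sdhc at 0.35 ± 0.11 (adjusted p = 0.398, 0.283, 0.283, 0.264, 0.271 and 0.283, edgeR), from complexes II, IV and V. The highest of complex III was Uqcr10, at 0.32. Cox6a1, at -0.03 ± 0.09, was the one gene below 0, and Cox8a (0.04), Cox4i2 (0.05) and Sdhaf2 (0.08) were near it. Medians by complex were 0.21 (II), 0.28 (III), 0.30 (IV) and 0.27 (V). Over the 4 subunit genes of complex II, without its assembly factors, the median was 0.32.

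The number of calls depended on the test. DESeq2 fitted to all 4 groups called 2 of the 49 genes, Atp5b and Cox7c, and 1.13% of all genes. DESeq2 fitted to the MI libraries alone called 24 of the 49, all higher in Cre-positive hearts, and 6.29% of all genes. In the authors' deposited table, made with DESeq2 by its name, 22 of the 50 genes were higher in Cre-positive MI at an adjusted p under 0.05 and 0 were lower, with a median of 0.29, beside 380 higher and 383 lower among its 17182 genes. Cre-negative MI 1 was the lowest of the 6 MI libraries in 46 of the 49 genes, and without it the median was 0.21 and 47 genes were positive. Without Cre-negative MI 3 the median was 0.32, the highest with any 1 library left out.

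**Figure D5:**
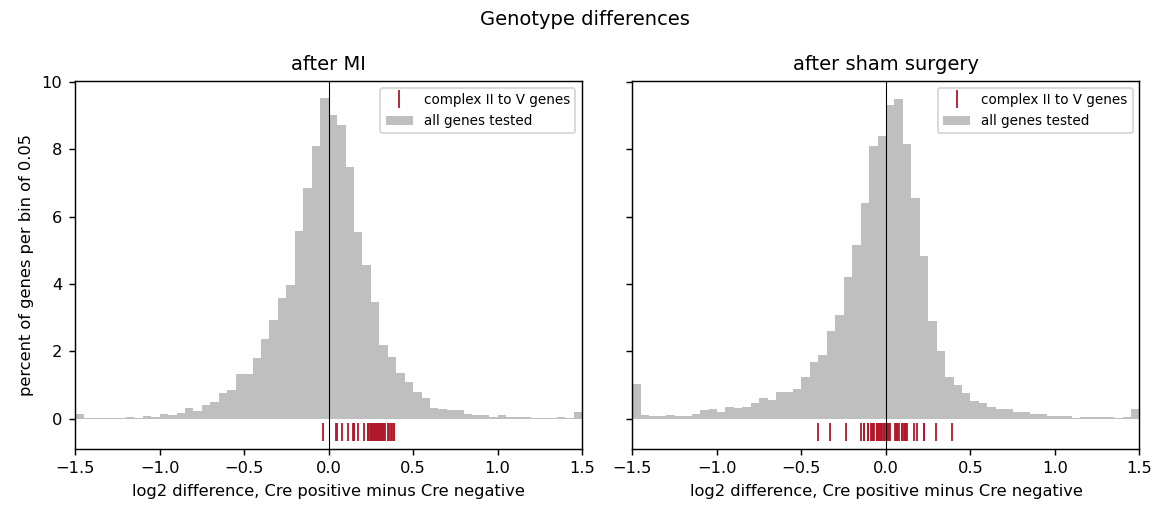
Log2 difference, Cre positive minus Cre negative, of all genes tested (grey, percent of genes per bin of 0.05, with values beyond 1.5 placed in the end bins) and of the 49 respiratory genes (red ticks), after MI (left) and after sham surgery (right). After MI 48 of 49 ticks lie right of 0, with a median of 0.28, while after sham surgery 25 of 49 do.

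The same libraries differed in cell type markers. All 10 cardiomyocyte markers had positive differences after MI (median 0.40), all 6 macrophage and monocyte markers negative ones (median -0.52), all 4 neutrophil markers negative ones (median -0.80), and 5 of 6 fibroblast markers negative ones (median -0.18), with 0 called in each list. The summed macrophage share was 0.118 to 0.138% in the Cre-positive MI libraries and 0.170 to 0.194% in Cre-negative MI libraries. The respiratory reads per cardiomyocyte marker read, given above, overlapped between these groups. The part of cell composition in the genotype difference was not tested, nor was that of the uneven level of Y-linked reads.

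After sham surgery the genotype differences lay around 0. By edgeR 0 of 49 genes were called and 0.0512% of all genes. DESeq2 called 0 of the 49 as well, and 36 of all 13678 genes. The authors' deposited table called 0 of the 50, and 12 of its 16514 genes. At an unadjusted p under 0.05 there were 3 of the 49 genes (8.22% of all genes). The median difference was 0.00, with 25 genes positive, and in 4 genes every Cre-positive sham library was above every Cre-negative one (5.5% of all genes). Those 4 were Sdhaf1, Cox6a1, Cox7a2l and Atp5g2. In 2 genes, Sdhaf3 and Cox4i2, every Cre-positive sham library was below every Cre-negative one (5.15% of all genes). The smallest p-values belonged to Cox6a1 (0.30 ± 0.09, adjusted p = 0.582) and Cox4i2 (-0.40 ± 0.13, adjusted p = 0.582). With 1 library left out the median ran from -0.05 with 16 genes positive (without Cre-positive sham 1) to 0.11 with 41 positive (without Cre-positive sham 2). Cell type markers differed between the sham groups too. Positive differences were seen in 0 of 6 macrophage and monocyte markers (median -0.46) and 0 of 6 fibroblast markers (median -0.55). They were seen in 4 of 4 neutrophil markers (median 0.76) and 1 of 10 cardiomyocyte markers (median -0.07), with 0 called in each list.

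Whether the response to infarction itself differed between genotypes was tested as the difference of the 2 injury contrasts. By edgeR 0 of 49 genes were called, and 0.0% of all genes, with a smallest adjusted p of 0.588. DESeq2 called 0 of the 49 as well, and 23 of all 13678 genes. At an unadjusted p under 0.05 there were 10 of the 49 genes, against 8.16% of all genes. The difference was positive, meaning a smaller fall in Cre-positive hearts, in 43 genes, with a median of 0.28 against 0.01 over all genes. It was 0.72 ± 0.25 for Cox7a1, the highest, and -0.33 ± 0.13 for Cox6a1, the lowest (adjusted p = 0.588 and 0.597). With 1 library left out the median ran from 0.18 with 42 genes positive (without Cre-positive sham 2) to 0.36 with 46 positive (without Cre-positive sham 1), and it was 0.19 without Cre-negative MI 1. The injury contrasts, the genotype contrasts and this difference share libraries, so they are not separate evidence.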

How the data were processed

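Per the submitters' processing notes, the authors aligned reads with Bowtie2 2.2.5 to mm10 and quantified genes with RSEM 1.2.12. Library files as deposited give each gene 1 expected count and 1 FPKM value (fragments per length and depth). How reads shared with near-identical copies or pseudogenes were split is not given in the sources used here. The authors also deposited comparison tables with log2 fold changes and adjusted p-values, made with DESeq2 according to their names and quoted as such.

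Expected counts were rounded (74.0% of values above 0 were whole within 0.005) and tested in R 4.3.3 with edgeR 4.0.16: filterByExpr (minimum count 10; 3793 genes removed), TMM, 1 quasi-likelihood fit with a coefficient per group over all 12 libraries (residual degrees of freedom 8, common dispersion 0.0272), and two-sided p-values adjusted over all genes within a contrast. Standard errors of log2 changes were worked back from that test, as the absolute log2 change over the square root of its F statistic. They rest on the spread fitted over all 12 libraries, not on the 3 libraries of a group alone. The scripts were tested on simulated data. Isoform log2 ratios used counts plus 0.5. Depth of 10257675 to 15176286 counts puts 3 reads at 0.198 to 0.292 CPM before TMM scaling, which covers counting error only.

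Alternatives were median-of-ratios (RLE) factors, total counts, no filter, DESeq2 1.42.0, only the groups compared, a replicate block, and each library left out. DESeq2 on only the groups compared was added after the authors' table was seen. Ratios were also computed from FPKM and with 5 reads added.

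The members, gene lists and markers were chosen with earlier results of these data known. Values in every library are given for the members of each complex with the largest and smallest change in Cre-negative hearts, the isoform genes, and members called against their complex. From other lists up to 2 called genes per direction with the smallest p were named. Other members named, and the genes picked out in the genotype comparisons, were chosen after their values were seen. All 50 genes were matched to RefSeq by identifier, and the start regions of 40 of them are RefSeq's, of GRCm38.p6.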

Additional observations from a re-analysis of the deposited data

How the results depend on the processing

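When 1 library was left out, 41 to 44 respiratory genes were called after MI in Cre-positive and 46 to 47 in Cre-negative hearts. Of all 13678 genes, 5048 to 6585 and 6340 to 8331 were called in the same refits. With only the groups compared 40 were called in Cre-positive hearts (4717 of all 13678), and with no filter 42 (6051 of 17449). With 1 library left out, 0 respiratory genes were called in every case in both genotype contrasts and in the difference of responses. Of all genes, 0 to 3 were called there after MI, 3 to 8 after sham and 0 to 1 for the difference. Correlations between libraries of the same replicate number, after removing group means, ran from -0.154 to 0.288. They were not set against those of different numbers, so whether the numbers pair the libraries was not tested. With the replicate block the counts of respiratory genes were 43, 46, 0, 0 and 0, as without it (6150, 7370, 0, 7 and 0 of all 13678 genes). For the genotype contrast after MI, DESeq2 called 2 genes (155 of all 13678), and 24 when fitted to those groups alone (861 of 13678), against 0 by edgeR. The cause was not tested. With total counts, the values of uncalled genes changed sign for Cox4i2 (0.22), Cox6b2 (0.017) and Cox8a (0.13) in Cre-positive hearts and for Cox6b2 (0.10) and Cox8a (0.22) in Cre-negative hearts, a scaling that moves all genes up. Leaving out 1 library gave Cox4i2 -0.10 to 0.11 and Cox6b2 -0.59 to 0.025 in Cre-positive hearts, and Cox6b2 -0.41 to 0.10 and Cox8a -0.12 to 0.029 in Cre-negative hearts. The isoform ratio differences kept their direction and their calls with 5 reads added and with each library left out, at -1.44 to -1.33 (Cox6a2 to Cox6a1), -0.62 to -0.45 (Cox7a1 to Cox7a2), -1.20 to -1.05 (Cox8b to Cox8a) and 0.52 to 0.61 (Cox4i2 to Cox4i1) when 1 library was left out. Ratios from FPKM differ by a constant length term only and test nothing further. With 3 libraries a group, changes within the standard errors given cannot be resolved, and for Cox6b2, at 11 to 32 reads a library, counting error limits the value.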

Other observations

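The spread within a group differed. The median coefficient of variation of the 49 genes' CPM over the 3 libraries was 4.70% for Cre-positive MI and 8.44% for Cre-negative MI, against 12.3% for Cre-positive sham and 5.29% for Cre-negative sham. Cre-negative MI 1 was lowest of the 6 MI libraries in 46 genes, and Cre-positive sham 2 lowest of the 6 sham libraries in 32, while Cre-positive sham 1 was highest of the 6 in 25. No Cre-negative MI library was the highest of the 6 MI libraries in any gene.

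In Cre-positive sham 2 the summed shares of the 10 cardiomyocyte markers and of the respiratory genes were both lower than in the other sham libraries. Those markers include Myh6, at 14335 CPM there against 39836 to 53143 in the other sham libraries. They leave out Myh7, at 34063 CPM there against 377 to 2938, so the marker share does not count that gene's reads. The 10 cardiomyocyte markers held 6.85% of its counts, against 11.3 to 12.8% in the other sham libraries, and the 50 respiratory genes 3.78%, against 4.28 to 4.63%. Complex I subunit genes stood at 1.07%, against 1.28 to 1.35%, and the lists of assembly factors and of electron carriers were also lowest there. The 17 general mitochondrial genes, at 1.67% against 1.5 to 1.65%, and the 16 regulators, at 0.169% against 0.126 to 0.143%, were not lower.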
